A study of Mus musculus with 6 samples.

Results

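The 10 genes studied here, all of the oxygen-sensing pathway, were followed in mouse Eµ-Myc lymphoma cells with and without the miR-17~92 microRNA cluster. The set, 10 of the 24885 rows of the count table, was chosen by symbol: Hif1a, Hif1an, Vhl, Egln1, Egln2 and Egln3, which encode HIF-1 alpha and the proteins that control it, and Bnip3, Bnip3l, Ndrg1 and Ankrd37, which are hypoxia-induced genes outside glycolysis. All 10 were found and all 10 had enough counts for the test. The study's design text describes tumour cells that are isogenic apart from the cluster. The comparison asks which transcripts differ between cells labelled as with and without it, which also differed in treatment and subcloning.

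Every library came from Eµ-Myc lymphoma cells that carried Cre-ERT2 and were homozygous for floxed miR-17~92 (fl/fl). In them a Myc transgene is driven in the B lineage by an immunoglobulin heavy-chain enhancer and Cre is active only with 4-hydroxytamoxifen (4-OHT). The 3 fl libraries are labelled as having the floxed cluster intact. The 3 del libraries are labelled as deleted for it, after 4 days in 250 nM 4-OHT and subcloning of the treated cells. Both kinds of cell were grown for 48 h on irradiated feeder layers of Ink4a-null mouse embryonic fibroblasts. Deletion, 4-OHT and subcloning go together and cannot be told apart, and how many subclones the del libraries stand for is not stated. The labels also do not say whether replicates were separate cultures, so p-values reflect only the spread among these libraries, which may be technical.

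The HIF transcription factors pair an oxygen-regulated alpha subunit with ARNT. In oxygen, the prolyl hydroxylases encoded by the Egln genes mark the alpha subunit for the VHL ubiquitin ligase and proteasomal destruction, while the asparaginyl hydroxylase encoded by Hif1an blocks its binding to the coactivators p300 and CBP. When oxygen is short, these reactions slow, the alpha subunit accumulates, and genes for glycolysis, mitophagy and vessel growth are transcribed. Egln1 and Egln3 are themselves HIF targets, which forms a feedback loop. HIF-1 alpha is controlled mainly as a protein, and only RNA was measured here.

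Library totals ran from 6554423 to 9580630 counts for fl and from 2121796 to 3738720 for del, so fl was on average 2.65 times as deep. Levels are given as CPM, counts rescaled to a common library size with TMM factors, and differences as log2 fold changes of del minus fl with their standard errors. Reads came from transcript 3' ends and were not scaled by length, so levels are compared between groups and not between genes. Mir17hg, from which the cluster is processed, averaged 259 ± 6.0 CPM in fl (SD, n = 3) and 175 ± 28.0 CPM in del (n = 3), but reads from its 3' end lie beyond the microRNAs and leave the deletion unchecked. The groups also differed in markers of cell identity. Summed over 10 B cell markers, the level was 20.7 to 28.9 CPM in fl and 731 to 896 CPM in del, with 9 of 9 tested markers higher in del and none at 0 in all libraries. Over 10 myeloid markers it was 429 to 476 CPM in fl and 1951 to 2031 CPM in del, with 6 of 8 tested markers higher, 2 lower and Mpo at 0. Over 10 fibroblast markers, which the feeder cells could supply, it was 1.38 to 8.21 CPM in fl and 13.4 to 33.2 CPM in del, with 2 of 3 tested markers higher and Lum at 0. The labelled B-lineage identity was thus weakly marked in fl, and the part of these differences in the results that follow was not tested. In bulk RNA, fewer cells of a type and less RNA per cell cannot be told apart.

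Of the 10 genes, 5 were lower in del, none was higher, and 5 did not pass the test, which was edgeR's quasi-likelihood test with adjustment over all 10260 genes tested. Egln3, Bnip3 and Ndrg1 fell 8.07-fold to 22.4-fold, and Egln1 and Vhl fell 1.59-fold and 1.56-fold. Across all tested genes 65.1% passed the threshold of 0.05 in either direction, 32.6% lower and 32.5% higher, so a call by itself is common in these libraries. A call with a fall of 8-fold or more was made for 2.84% of tested genes, and 3 of the 10 genes had one. Ndrg1 lay at that limit and fell short of it without fl replicate 1 (log2 fold change -2.93), without del replicate 2 (-2.99), without del replicate 3 (-2.88), with library totals alone (-2.96) and with libraries thinned to equal totals (-2.94), which leaves 2 of the 10. The median log2 fold change was -0.56 over the 10 genes and -0.00 over all tested genes, whose 5th and 95th percentiles were -1.92 and 2.67. All 3 del values lay below all 3 fl values for 6 of the 10 genes, against 35.7% of tested genes. The 10 genes and the lists below were chosen with earlier results of these data known. Comparisons of them with all tested genes are therefore description and not a test.

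**Figure D1:**
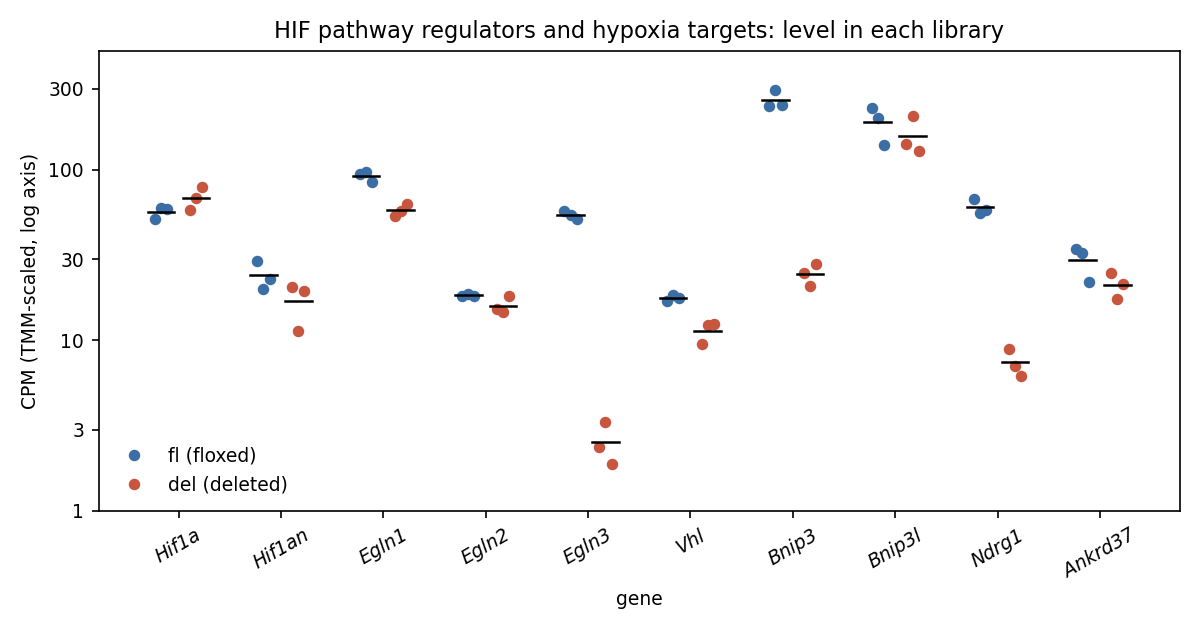
Level of each of the 10 genes in CPM (log scale) in the 3 fl and 3 del libraries, with points for libraries and bars for group means. Egln3, Bnip3 and Ndrg1 lie far lower in del, Vhl and Egln1 are modestly lower, Egln2 is slightly lower without a call, and the other 4 genes overlap between the groups.

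Hif1a (chr12:73901324-73947554, GRCm38), the gene for HIF-1 alpha, was at 51.7, 59.5 and 59.2 CPM in the fl libraries and at 57.9, 68.2 and 78.9 CPM in the del libraries. The lowest del library lay inside the fl range and the other two lay above it. The log2 fold change was 0.27 ± 0.15 (95% interval -0.07 to 0.61, adjusted p = 0.148), so the test did not separate the groups, and the estimate was -0.25 once the trend of fold change with transcript length and GC content was removed. The RNA of the oxygen-regulated subunit therefore gave no call, with an interval that leaves room for a rise of up to 0.61 on the log2 scale.

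**Figure D2:**
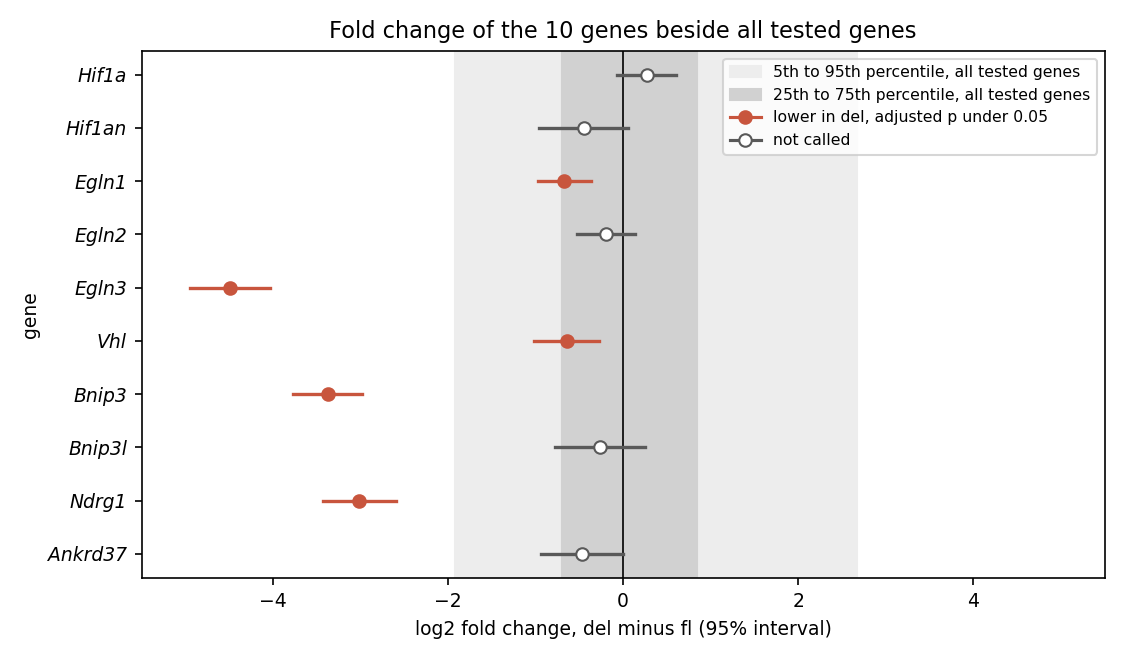
Log2 fold change (del minus fl) of each of the 10 genes with its 95% interval, coloured by call. The intervals of Egln3, Bnip3 and Ndrg1 lie below -2, those of Egln1 and Vhl lie nearer to 0 on the same side, and those of Hif1a, Hif1an, Egln2 and Bnip3l include 0.

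Of the 3 prolyl hydroxylase genes, Egln1 and Egln3 were lower in del and Egln2 gave no call. Egln3 (chr12:54178981-54203874), which encodes PHD3, was at 57.3, 54.5 and 51.8 CPM in fl and at 2.37, 3.32 and 1.89 CPM in del. The del values rested on 9, 7 and 7 counts, against 353 to 500 counts in fl, and the groups were far apart. This was a 22.4-fold fall (95% interval 16.3 to 30.9, log2 fold change -4.49 ± 0.20, adjusted p = 3.32e-07), and 1.73% of tested genes had a lower log2 fold change.

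Egln1 (chr8:124908587-124949254), which encodes PHD2, the main HIF prolyl hydroxylase in most cells, was at 94.1, 97.4 and 85.0 CPM in fl and at 53.5, 57.3 and 62.7 CPM in del. Every del library was below every fl library, by a margin wider than the spread within either group. The log2 fold change was -0.67 ± 0.13 (95% interval -0.97 to -0.37, adjusted p = 0.0017). Egln2 (chr7:27158658-27166802), which encodes PHD1, was at 18.3, 18.8 and 18.3 CPM in fl and at 15.3, 14.7 and 18.1 CPM in del. The highest del library almost reached the lowest fl library. Its log2 fold change of -0.20 ± 0.15 (95% interval -0.52 to 0.13, adjusted p = 0.262) did not pass the test, and the estimate turned to 0.36 after removal of the length and GC trend and to 0.01 with libraries thinned to equal totals.

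The ratio of Egln3 to Egln1 counts within a library does not depend on how libraries are scaled. There were 60.9, 56.0 and 60.9 Egln3 counts per 100 Egln1 counts in fl and 4.43, 5.79 and 3.02 in del. The log2 ratio was -0.76 ± 0.07 (SD, n = 3) in fl and -4.46 ± 0.47 (n = 3) in del, a 13.1-fold difference, and the two-sided exact permutation p of 0.1 is the smallest that 3 against 3 libraries can give. All 3 del ratios lay below all 3 fl ratios, and this shows an unequal change within the pair only. The genes of this pair were chosen with earlier results of these data known, as were those of the Bnip3 pair below. Both permutation p-values are therefore description and not a test.

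Vhl (chr6:113623994-113631634), the substrate-recognition subunit of the ligase that destroys hydroxylated HIF-1 alpha, was at 16.97, 18.4 and 17.7 CPM in fl and at 9.48, 12.3 and 12.4 CPM in del. The groups did not overlap. The log2 fold change was -0.65 ± 0.16 (95% interval -1.01 to -0.28, adjusted p = 0.00671), and -0.98 with libraries thinned to equal totals. Hif1an (chr19:44562854-44576274), which encodes the asparaginyl hydroxylase FIH, was at 29.2, 20.1 and 23.0 CPM in fl and at 20.5, 11.4 and 19.5 CPM in del. One del library lay just above the lowest fl library, and another was well below all the rest on 24 counts. Its log2 fold change of -0.45 ± 0.23 (95% interval -0.96 to 0.06, adjusted p = 0.105) gave no call. Hif1an did pass the threshold with upper-quartile scaling (-0.58, adjusted p = 0.0363) and after removal of the length and GC trend (-1.05, adjusted p = 0.00313).

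**Figure D3:**
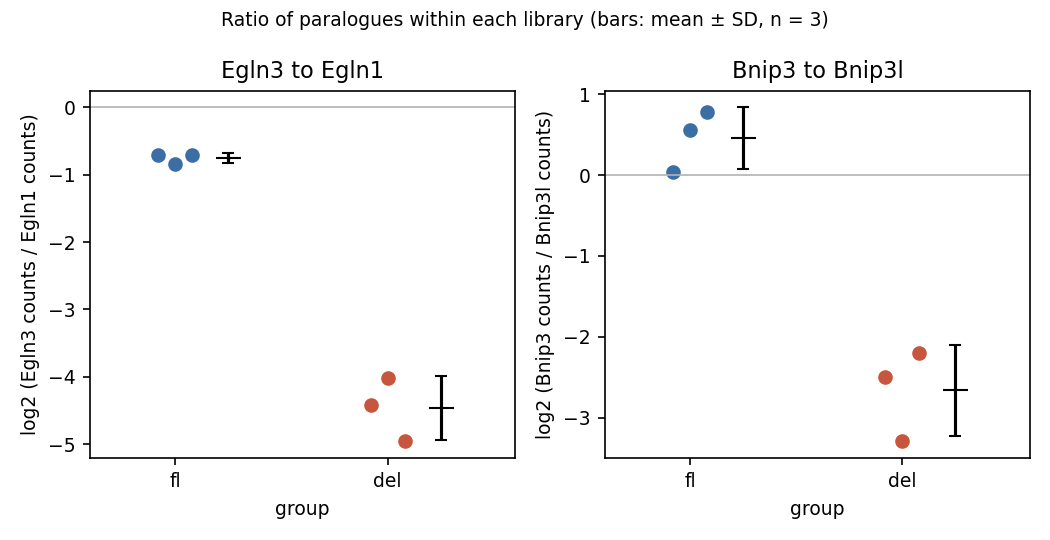
Log2 ratio of counts within each library for Egln3 to Egln1 and for Bnip3 to Bnip3l, in the 3 fl and 3 del libraries. Both ratios are lower in every del library than in any fl library, with differences of -3.71 and -3.12 between the group means.

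Among the hypoxia-induced genes, Bnip3 and Bnip3l encode related outer mitochondrial membrane proteins that act as receptors for mitophagy, the removal of mitochondria by autophagy. Bnip3 (chr7:138890836-138909506) was at 237, 296 and 242 CPM in fl and at 25.02, 20.8 and 28.1 CPM in del. The lowest fl library was far above the highest del library. The fall was 10.4-fold (95% interval 7.90 to 13.6, log2 fold change -3.38 ± 0.17, adjusted p = 7.4e-07), with 2.31% of tested genes lower.

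Bnip3l (chr14:66985238-67008877), which encodes NIX, was at 231, 201 and 140 CPM in fl and at 142, 206 and 129 CPM in del. The groups overlapped widely, with the highest del library inside the fl range. The log2 fold change of -0.27 ± 0.23 (95% interval -0.78 to 0.25, adjusted p = 0.329) did not pass the test. The interval excludes a fall of the size seen for Bnip3. There were 103, 147 and 172 Bnip3 counts per 100 Bnip3l counts in fl and 17.6, 10.1 and 21.7 in del, an 8.71-fold difference of the mean log2 ratios (0.46 ± 0.38 in fl and -2.66 ± 0.56 in del, n = 3 each, two-sided exact permutation p = 0.1, the smallest possible).

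Ndrg1 (chr15:66929318-66969641), a gene induced by hypoxia and other stresses and named for its repression by N-myc, was at 67.3, 55.8 and 58.2 CPM in fl and at 8.95, 7.11 and 6.22 CPM in del. No del library came near the fl range. The fall was 8.07-fold (95% interval 6.06 to 10.7, log2 fold change -3.01 ± 0.18, adjusted p = 1.71e-06), with 2.80% of tested genes lower. Ankrd37 (chr8:45996908-46000414), which encodes a small ankyrin-repeat protein and is a known HIF-1 target, was at 34.5, 32.6 and 22.1 CPM in fl and at 24.8, 17.5 and 21.4 CPM in del. Replicate 3 of fl lay within the del range, so the groups overlapped. The log2 fold change of -0.47 ± 0.21 (95% interval -0.94 to -0.01, adjusted p = 0.0698) was not called. Ankrd37 was called lower without fl replicate 3 (-0.64, adjusted p = 0.0141), with upper-quartile scaling (-0.60, adjusted p = 0.0218) and with no filter on low counts (-0.52, adjusted p = 0.035), and its sign turned (0.13) after removal of that trend. Its exons overlap those of Ufsp2 on the opposite strand, and since the strand setting of the counting is not known here, reads of this pair may not be separated. Exons of Bnip3, Ndrg1 and Hif1a also overlap annotated opposite-strand genes that have no row in the count table, and those of Hif1a overlap the same-strand Gm49321, also without a row. Reads from such genes could be counted for the member.

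**Figure D4:**
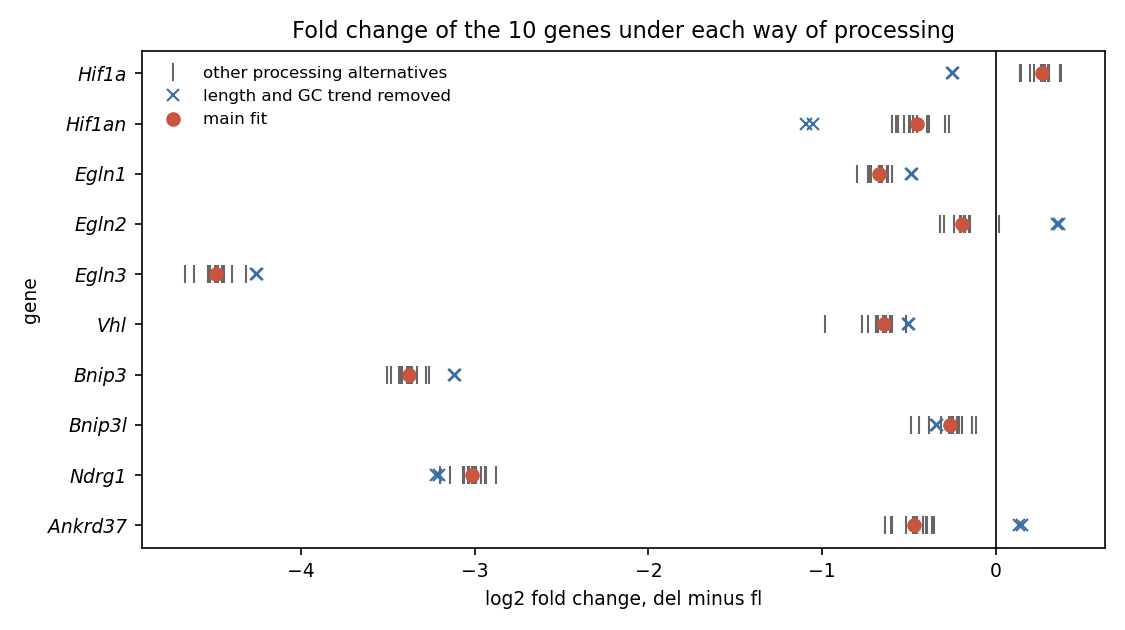
Log2 fold change (del minus fl) of the 10 genes under the reported fit and under each of the 15 alternative settings. Egln3, Bnip3, Ndrg1, Egln1 and Vhl stay below 0 throughout, while Hif1a, Egln2 and Ankrd37 cross 0.

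By the likeness of their profile over the 6 libraries (Euclidean distance of mean-centred log2 CPM, among 6047 genes with a mean of at least 20 CPM), the genes nearest to Egln3 were Anxa2 at a distance of 0.713, Rpgrip1 at 1.03 and Aldoc at 1.03. Anxa2, which encodes the membrane-binding protein annexin A2, was at 408, 540 and 449 CPM in fl and at 25.5, 25.6 and 29.2 CPM in del. Aldoc, a glycolytic aldolase gene, was at 45.7, 55.8 and 41.3 CPM in fl and at 2.63, 1.42 and 2.43 CPM in del. The genes nearest to Hif1a were Stx8 at 0.136, Cpne3 at 0.142 and Zfand6 at 0.159, and like Hif1a none of them was called. Cpne3 turned to a call in the other direction after removal of the length and GC trend (-0.58, adjusted p = 0.0144). These distances describe only 6 libraries, in which one large split between the groups sets the profile of any gene that changed.

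The cluster gives 6 mature microRNAs in 4 seed families, and their sequences are shown because a match to the seed is how a microRNA recognises its targets. Capitals mark the seed, bases 2 to 8 (RefSeq, GRCm38.p6, chromosome 14). miR-17 and miR-20a share a seed, as do miR-19a and miR-19b.
miR-17-5p: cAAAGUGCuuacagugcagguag
miR-20a-5p: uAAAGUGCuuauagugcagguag
miR-18a-5p: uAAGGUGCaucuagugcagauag
miR-19a-3p: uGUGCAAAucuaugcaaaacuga
miR-19b-3p: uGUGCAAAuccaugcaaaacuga
miR-92a-3p: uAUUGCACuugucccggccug

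The reverse complements of these seeds, GCACTTT for miR-17 and miR-20a, GCACCTT for miR-18a, TTTGCAC for miR-19 and GTGCAAT for miR-92a, were searched on the transcript strand of the longest annotated 3' UTR of each gene. Hif1a, Hif1an, Vhl, Egln1, Egln3 and Bnip3 held at least 1 match, and Egln2, Bnip3l, Ndrg1 and Ankrd37 held none. Of 9825 UTRs of tested genes, 33.7% held a match to any family, and 14.7%, 9.12%, 13.4% and 7.65% held one to the families in the order given. The windows below are the matches of the called genes and of Hif1a for the miR-17 family and miR-19, with the heptamer in capitals.
Hif1a, miR-17 family, chr12:73946678-73946684, plus strand: ttggttttatGCACTTTgtcgctatta
Vhl, miR-17 family, chr6:113630131-113630137, plus strand: ccacgtcccaGCACTTTctctctgttt
Egln3, miR-17 family, chr12:54180326-54180332, minus strand: cttcttattcGCACTTTatgtatgcgt
Egln1, miR-19, chr8:124909503-124909509, minus strand: aaagccagagTTTGCACagattgtggg
Egln1, miR-19, chr8:124908719-124908725, minus strand: aacagcccttTTTGCACgacaggcagg
Bnip3, miR-19, chr7:138891818-138891824, minus strand: tccttgggtgTTTGCACtatgtgtgtt

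Long UTRs hold more matches by length alone. Among UTRs of like length (no shorter than 0.8 times it, and no longer in the same proportion), 41.6% held one for Hif1a, 75.2% for Hif1an, 46.3% for Vhl, 47.9% for Egln1, 39.6% for Egln3 and 28.7% for Bnip3. A match is a description of these letters and not of a working site.

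Promoter sequences are shown for 4 genes, because HIF binds a short core motif that can lie near the start of its targets. These are the 2 with the largest falls that have a RefSeq entry, and Hif1a and Ankrd37, which did not pass the test. Only the stretch described next was searched, so sites elsewhere would be missed. The core was searched as ACGTG or GCGTG on both strands in the 250 bases before the annotated start. CACGTG, the E-box that MYC and other factors bind, counts as ACGTG once on each strand. For Hif1a and Ankrd37 the start used lies inside the span given above for the gene. The bases before the outer end of that span were not searched for these genes. Either core was found in 57.2% of the promoters of tested genes and in 38.6% of all 32851 RefSeq promoters, so matches are common. Capitals mark matches, each stretch is in the direction of transcription, and stretches stop short of annotated exons.
Egln3, chr12:54203875-54204124, minus strand: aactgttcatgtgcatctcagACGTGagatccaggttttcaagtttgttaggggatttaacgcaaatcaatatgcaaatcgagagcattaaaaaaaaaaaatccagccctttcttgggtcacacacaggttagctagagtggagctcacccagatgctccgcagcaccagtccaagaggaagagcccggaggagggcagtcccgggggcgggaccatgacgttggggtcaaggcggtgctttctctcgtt
Bnip3, chr7:138909520-138909756, minus strand: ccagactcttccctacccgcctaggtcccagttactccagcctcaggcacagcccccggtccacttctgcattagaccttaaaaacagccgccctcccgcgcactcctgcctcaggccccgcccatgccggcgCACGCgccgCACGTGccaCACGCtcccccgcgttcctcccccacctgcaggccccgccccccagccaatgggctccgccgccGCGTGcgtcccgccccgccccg
Ankrd37, chr8:45999868-46000100, minus strand: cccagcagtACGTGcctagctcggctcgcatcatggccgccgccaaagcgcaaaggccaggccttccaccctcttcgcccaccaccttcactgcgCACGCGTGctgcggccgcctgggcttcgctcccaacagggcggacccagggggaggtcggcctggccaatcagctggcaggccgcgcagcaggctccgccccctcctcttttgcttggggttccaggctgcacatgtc
Hif1a, chr12:73907617-73907866, plus strand: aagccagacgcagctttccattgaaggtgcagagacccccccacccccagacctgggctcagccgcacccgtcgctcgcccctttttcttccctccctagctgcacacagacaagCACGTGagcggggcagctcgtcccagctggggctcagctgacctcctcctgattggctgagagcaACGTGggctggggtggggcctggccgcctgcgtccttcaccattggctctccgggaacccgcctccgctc

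Egln3, which fell most, had a single ACGTG match 229 bases before its start. Bnip3 had 5 matches, of which 2 form a CACGTG at 108 and 107 bases and 3 are GCGTG at 117, 99 and 35 bases. Ankrd37, which gave no call, had 4 matches, 1 of them outside the printed stretch at 6 bases before the start. Hif1a had 3 ACGTG matches, 2 of them from a CACGTG. Egln1 and Egln2 also held matches, Hif1an and Vhl held none in this window, and Bnip3l and Ndrg1 have no entry.

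Partners and regulators of HIF were taken from a list of 15 genes, of which 12 were tested. Of these, 7 were lower in del, 2 higher and 3 not called, with a median log2 fold change of -0.69. Over all tested genes 65.1% were called, 32.6% lower and 32.5% higher. Hif3a, an alpha subunit that can restrain HIF-1, was at 6.42, 6.71 and 6.01 CPM in fl and had 1 count over the whole del group against 157 in fl, a depth-adjusted ratio of 61.6 (95% counting interval 10.9 to 2449). Eloc, the elongin C subunit of the VHL ligase, fell from 316 ± 21.2 to 137 ± 10.1 CPM (log2 fold change -1.21 ± 0.14, adjusted p = 6.06e-05). The coactivator genes Crebbp and Ep300 moved the other way. Crebbp rose from 21.9 ± 6.52 to 95.2 ± 22.3 CPM (2.11 ± 0.25, adjusted p = 8.66e-05), and Ep300 from 24.0 ± 4.25 to 97.1 ± 36.0 CPM (2.02 ± 0.26, adjusted p = 0.000153). Both remained higher, by 1.17 and 1.10, after removal of the length and GC trend. Epas1, which encodes HIF-2 alpha, had too few counts for the test.

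Of 37 other non-glycolytic hypoxia genes, 28 were tested: 16 were lower, 5 were higher and 7 were not called, with a median of -0.68. The shares over all tested genes were 32.6% lower and 32.5% higher. A call with a fall of 2-fold or more was made for 11 of the 28, against 15.9% of all tested genes. Angptl4, an inhibitor of lipoprotein lipase, fell from 17.4 ± 1.21 to 4.85 ± 0.322 CPM (-1.85 ± 0.18, adjusted p = 2.67e-05). In the opposite direction, Cxcr4, the receptor for the chemokine CXCL12, rose from 1.66 ± 0.41 to 54.3 ± 3.38 CPM (5.004 ± 0.19, adjusted p = 1.59e-07). Cxcr4 is also widely expressed by B and myeloid cells, whose marker sums were higher in del as given above. The part of such differences was not tested for Cxcr4 or for any other gene named here. Bhlhe41, a transcriptional repressor, rose from 12.2 ± 1.67 to 87.7 ± 16.4 CPM (2.85 ± 0.19, adjusted p = 2.59e-06), and by 2.16 after removal of the length and GC trend. Vegfa, the vascular endothelial growth factor and the best-known HIF target, named here after its values were seen, averaged 55.1 ± 6.77 CPM in fl against 40.1 ± 17.5 CPM in del and did not pass the test (-0.44 ± 0.26, adjusted p = 0.174). The list thus held called genes in both directions.

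**Figure D5:**
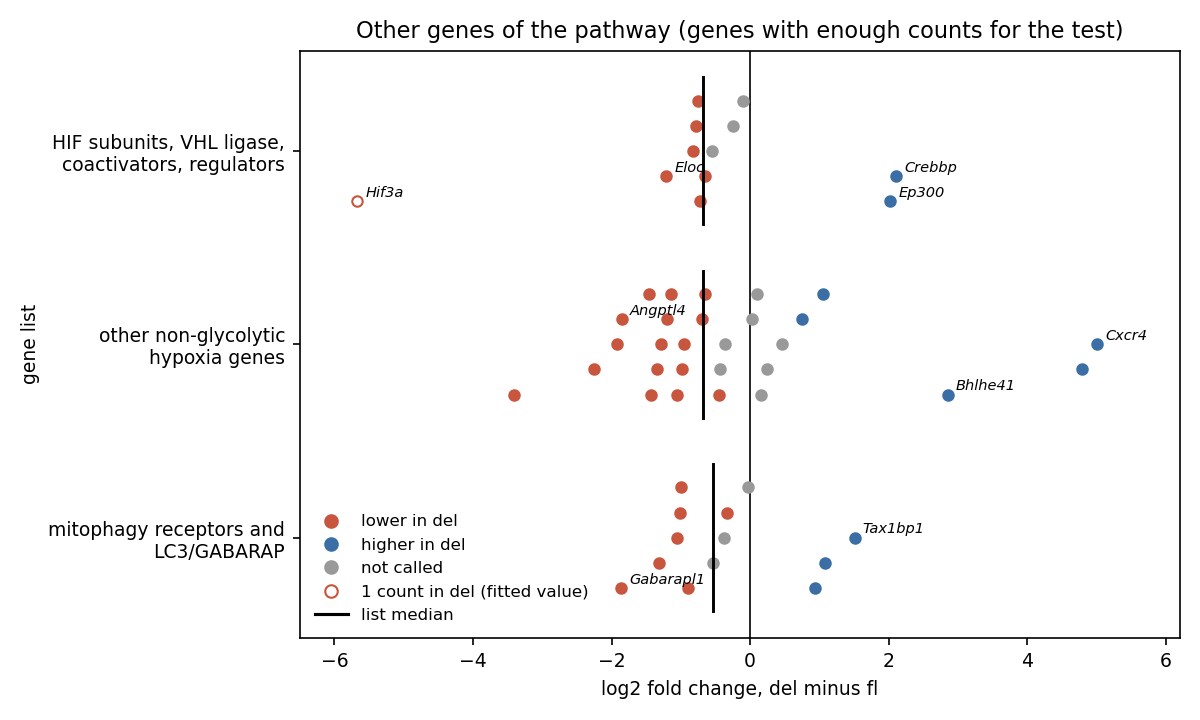
Log2 fold change (del minus fl) of the tested genes of 3 lists, coloured by call, with a bar at each list median and an open point for Hif3a, whose fitted value rests on 1 count in del. The medians of -0.69, -0.68 and -0.54 lie below 0, with called genes on both sides in each list.

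Of 16 mitophagy genes besides Bnip3 and Bnip3l, 13 were tested, with 7 lower, 3 higher and 3 not called and a median of -0.54. Among all tested genes 32.6% were called lower and 32.5% higher. Gabarapl1, of the autophagosome protein family that Bnip3 and Bnip3l bind, fell from 69.4 ± 6.73 to 19.1 ± 1.55 CPM (-1.87 ± 0.15, adjusted p = 8.25e-06). Gabarapl2, of the same family, fell from 95.9 ± 2.90 to 46.6 ± 6.15 CPM (-1.05 ± 0.14, adjusted p = 0.00017, and -0.70 at its smallest among the alternatives). Phb2, the inner-membrane receptor prohibitin 2, fell from 443 ± 27.3 to 178 ± 15.3 CPM (-1.32 ± 0.14, adjusted p = 4.34e-05). Tax1bp1, an autophagy cargo adaptor, rose from 178 ± 30.2 to 506 ± 41.0 CPM (1.51 ± 0.16, adjusted p = 5.03e-05).

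Among the relatives of Ndrg1, Ndrg2 had 180 counts in the fl libraries together and 0 in the del libraries together, which is at least 23.5-fold higher in fl when del is set to a floor of 3 counts per group. Ndrg3 averaged 18.1 ± 1.70 CPM in fl against 23.2 ± 3.69 CPM in del, with no call (0.37 ± 0.16, adjusted p = 0.0706), though it passed the threshold with libraries thinned to equal totals (0.52, adjusted p = 0.0486). Ndrg4 had too few counts for the test. A fall was thus called for Ndrg1 and Ndrg2 and not for Ndrg3.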

How the data were processed

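Poly(A)-primed, strand-specific 3' RNA-seq was made from 3 fl and 3 del samples, per the labels' protocols. The authors deposited raw read counts per gene. Per the submitters' processing notes, the tools were STAR and HTSeq and the build mm10, while versions and the strand setting used in counting were not given in the sources used here. Symbols came from the RefSeq table of GRCm38, the assembly that mm10 represents.

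Counts were compared in R 4.3.3 with edgeR 4.0.16 (filterByExpr by group, TMM factors, robust glmQLFit and glmQLFTest, group as the only term) over 10260 genes with Benjamini-Hochberg adjustment and a threshold of 0.05, and an adjusted p for a gene comes from this fit unless another setting is named beside it. Standard errors and 95% intervals derive from the F statistic. The scripts were tested on simulated counts in which few genes changed. That simulation does not cover a difference as broad as the 65.1% of tested genes called here. No 2 libraries of the same group agreed within sampling noise. CPM used TMM-scaled library sizes. Counting intervals and floors (3 counts) cover counting error only, since PCR reads are not independent molecules.

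The members and lists were chosen with earlier results of these data known. Named genes were the 10 members, Mir17hg, from each list the 4 with the lowest adjusted p (2 where the list had no more), and the 3 genes nearest to Egln3 and to Hif1a. A gene that this rule covers is not reported here. Seed matches used the longest 3' UTR in the GENCODE M21 annotation of GRCm38. Alternatives covered DESeq2 1.42.0, other scalings and filters, thinning, length and GC trends, a replicate block and leaving out each library.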

Additional observations from a re-analysis of the deposited data

How the results depend on the processing

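The calls of Vhl, Egln1, Egln3, Bnip3 and Ndrg1 held with the same direction under all 15 alternatives, with log2 fold changes of -0.98 to -0.50, -0.80 to -0.49, -4.66 to -4.25, -3.51 to -3.11 and -3.22 to -2.88, and the highest adjusted p was 0.0446, for Vhl. Hif1a turned to -0.25 after removal of the length and GC trend (transcript length was known for 97.6% of tested genes), and to -0.25 when the replicate block was added. Under the same settings Egln2 turned to 0.36 and 0.35, Ankrd37 to 0.13 and 0.15, and Cpne3 to -0.58 and -0.58 (adjusted p = 0.0144 and 0.0151, both past the threshold), and Egln2 was at 0.0143 with libraries thinned to equal totals. These causes were not tested. Of the 10 genes, 5 to 7 were called across the alternatives, 7 with upper-quartile scaling, which moved the median of all tested genes to -0.13, and relative to which Hif1an and Ankrd37 were at -0.45 and -0.47. Over all genes 5488 to 7286 were called, and of the other pathway genes 34 to 44, against 41 in the reported fit. With upper-quartile scaling 56.0% of calls were lower, against 50.1%.

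Same-numbered fl and del libraries did not deviate together (correlations of -0.04 to 0.08, and replicate 2 of fl correlated best with replicate 3 of del), so the numbers were not taken as pairs. With the replicate number as a block, 6510 genes were called, 6 of the 10 genes (Hif1an added, -0.49, adjusted p = 0.0379) and 41 other pathway genes, and the ratio differences of -3.71 and -3.12 had a sign-flip p of 0.25, the smallest that 3 pairs allow. Leaving out 1 library gave ratio differences of -3.93 to -3.46 and -3.35 to -2.81. With 5 counts added to both genes in place of 0.5, the differences were -3.11 and -3.05. The Egln3 to Egln1 value then lay outside its range above. The length and GC trend, with and without the block, and the unscaled library totals were added after seeing the data. Depth limits Egln3 most in del, where each library held 7 to 9 counts.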
